A study of Mus musculus with 14 samples.

Results

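Histones are the proteins that package DNA, and their genes were compared here between the cortex of control mice and of mice without Fmr1, in RNA and in ribosome footprints. The members were all gene symbols in the count table that begin with Hist followed by a cluster digit and h, or with H2af, H3f or H1f. They numbered 82 of 23412 genes. Of these, 68 belong by symbol to the replication-dependent clusters and 14 to the replacement variants.

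The study's title asks about translation elongation in Fmr1 knock-out brain. Fmr1 encodes FMRP, an RNA-binding protein found on translating ribosomes. Control mice were labelled Rpl22flox/flox;CamKCre+ and knock-out (KO) mice Fmr1X-Y; Rpl22flox/flox;CamKCre+, so both groups carried the floxed Rpl22 allele and the Cre. The labels call the source a CAMKIIa-Ribotag brain and the tissue cortex, and give no age. The CamK promoter drives Cre mainly in excitatory forebrain neurons, but the protocols name no pull-down of tagged ribosomes, so whole cortical lysate is what the libraries hold as far as the labels say. In RNA-seq there were 4 controls (mice 1, 3, 6 and 8) and 4 KO animals (mice 2, 4, 5 and 7). In ribosome profiling, where nuclease leaves the stretch of mRNA inside each ribosome to be sequenced, there were 3 controls (mice 1, 3 and 9) and 3 KO animals (mice 2, 4 and 10).

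Replication-dependent histone genes are small, lack introns, lie in clusters and are used mainly in S phase, when new chromatin is built. Their mRNAs classically end in a stem-loop in place of a poly(A) tail, although some members also make polyadenylated forms. Replacement variants are single genes, mostly with introns and poly(A) tails, that supply histones outside S phase, which makes them the main source of new histone in neurons that no longer divide.

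In the RefSeq table, 80 of the 82 members matched 1 gene, 77 of them by an older symbol. The Hist1 cluster lies on chromosome 13 (53 members), Hist2 on chromosome 3 (10), Hist3 on chromosome 11 (3) and Hist4 on chromosome 6 (1). Promoter windows of 300 bases, 250 before and 50 after the start, were searched on both strands for 3 motifs, none of which is contained in another. The TATA box, searched as TATAAA, was in 56.5% of 62 replication-dependent windows, in 9.09% of 11 replacement windows and in 13.6% of all 32851 windows. The second motif, CCAAT, was in 85.5%, 63.6% and 37.4%. The octamer known from H2B promoters, searched as ATTTGCAT, was in 22.6%, 9.09% and 1.74%. Among the cluster families, each H1, H2A, H2B and H3 window held CCAAT, but 3 of 12 H4 windows did. The octamer was in 7 of 17 H2A and 7 of 17 H2B windows and in no window of the other cluster families.

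The 150 bases before the start are shown for members that the comparisons turn on, because they carry the promoter elements by which the classes differ. They are from RefSeq, build GRCm38.p6, 5′ to 3′ on the gene's strand, with the 3 motifs or their reverse complements in capitals.
Hist1h4d, chr13:23581418-23581567, plus strand: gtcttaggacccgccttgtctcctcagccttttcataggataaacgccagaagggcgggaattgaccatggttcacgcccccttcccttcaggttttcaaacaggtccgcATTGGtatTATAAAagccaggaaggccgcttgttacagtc
Hist1h4h, chr13:23530894-23531043, plus strand: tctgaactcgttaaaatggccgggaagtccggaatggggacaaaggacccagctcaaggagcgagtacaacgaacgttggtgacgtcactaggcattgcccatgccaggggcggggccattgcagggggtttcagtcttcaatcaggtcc
Hist1h3i, chr13:21783398-21783547, minus strand: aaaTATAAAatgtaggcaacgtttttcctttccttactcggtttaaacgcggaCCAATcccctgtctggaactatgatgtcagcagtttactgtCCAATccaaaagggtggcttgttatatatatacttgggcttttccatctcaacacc
Hist1h1d, chr13:23554882-23555031, plus strand: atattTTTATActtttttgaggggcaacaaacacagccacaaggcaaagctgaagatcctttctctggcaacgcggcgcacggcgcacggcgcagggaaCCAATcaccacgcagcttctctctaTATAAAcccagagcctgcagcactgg
Hist2h2bb, chr3:96269550-96269699, plus strand: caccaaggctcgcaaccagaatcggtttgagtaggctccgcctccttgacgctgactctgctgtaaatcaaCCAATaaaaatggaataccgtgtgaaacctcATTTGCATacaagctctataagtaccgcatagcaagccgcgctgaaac
H3f3b, chr11:116024505-116024654, minus strand: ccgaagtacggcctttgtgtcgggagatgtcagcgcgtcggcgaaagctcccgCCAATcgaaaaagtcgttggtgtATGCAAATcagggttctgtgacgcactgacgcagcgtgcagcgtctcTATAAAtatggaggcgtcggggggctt
H2afz, chr3:137864337-137864486, plus strand: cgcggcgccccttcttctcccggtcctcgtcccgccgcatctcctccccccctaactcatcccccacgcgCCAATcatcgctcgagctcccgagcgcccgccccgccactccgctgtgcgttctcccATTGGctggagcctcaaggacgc
The stretch of Hist1h4h held none of the 3 motifs, whereas that of H3f3b, a replacement gene, held all 3. H3f3b was also the replacement member whose window held TATAAA and ATTTGCAT.

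RNA libraries held 8847547 to 11371851 counts each and footprint libraries 4124065 to 6033030. Levels are given as CPM, counts scaled to a common library size. As a check of the labels, Fmr1 RNA was at 71.3 to 89.9 CPM in controls and 18.1 to 23.4 CPM in KO mice, and its footprints at 111 to 115 and 5.82 to 8.54 CPM. The RNA of KO mice 2, 4 and 7 differed little more than by sampling (chi-square per degree of freedom 1.18 to 1.32), that of control mice 1 and 3 gave 1.99, and the other pairs within a genotype gave 4.03 to 11.8. Pairs of footprint libraries within a genotype gave 1.15 to 1.42. Results in RNA are therefore also given with the close libraries summed. The footprint libraries were about as close, but summing them would leave 1 per genotype, so this was not done. Adjusted p-values that use footprints take each footprint library as a separate mouse, without this check. Summed markers of excitatory neurons were higher in KO RNA (2668 to 2961 against 2086 to 2367 CPM, with 2 of 6 genes called higher, 0 lower and 0 at zero) and lower in KO footprints (4174 to 4295 against 4419 to 4522 CPM, with 2 of 6 called higher and Camk2a, at 3155 CPM in controls and 2860 in KO mice, called lower). Those of oligodendrocytes (4267 to 4594 against 4884 to 5326 CPM, 1 of 6 genes called lower) and of oligodendrocyte precursors, which still divide (237 to 255 against 267 to 293 CPM, 1 of 5 called lower), were lower in KO RNA. Both were also lower in footprints, the first at 8007 to 8049 against 8194 to 8353 CPM (3 of 6 called lower, 1 higher) and the second at 426 to 444 against 546 to 558 CPM (4 of 5 called lower). Astrocyte markers overlapped in RNA (2 of 5 called lower) and were lower in footprints (1516 to 1535 against 1631 to 1674 CPM, 2 of 5 called lower). Inhibitory neuron markers overlapped in RNA (1 called higher, 1 lower) and were higher in footprints (1694 to 1721 against 1621 to 1667 CPM, 3 of 6 called higher, 1 lower). Choroid plexus markers ranged from 8.06 to 275 CPM in control RNA and from 4.18 to 114 in KO RNA, and were lower in footprints (3.08 to 5.15 against 5.19 to 8.51 CPM, 1 of 2 tested called lower, Ttr). The part of these markers in the histone results was not tested, and in bulk tissue fewer cells of a type and less RNA per cell cannot be told apart.

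Not every member could be measured. H2afy3 had no value in footprints or in the RNA counts used, 13 members had no RNA read and 11 had no footprint. A filter on low counts kept 62 members in RNA (52 cluster members and 10 replacement variants) and 49 in footprints (41 and 8). The table gives RNA counts in 2 columns per library, and the one whose header ends in exon held reads for Hist2h3c1 (60 to 93 counts) and Hist2h3c2 (18 to 37), copies of H3 that were at 0 in the other RNA column and in footprints. Many cluster genes of a family have nearly the same coding sequence and all H4 genes encode one protein. How reads that match several copies were counted is not given in the sources used here, so the split of reads among such copies is uncertain.

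The 2 kinds of RNA column set the classes apart. Among genes with at least 80 exon reads, cluster members kept a median of 99.9% of their exon column reads in the other RNA column, and 43 of 53 kept at least 95%. The 10 replacement variants kept a median of 68.9% (27.1% to 81.9%) and none kept 95%. The median of 13915 genes was 64.8%, and 7.53% of them kept at least 95%. The highest value among these genes was 18762%, so the exon column does not contain the other for every gene. Kept therefore means the ratio of reads in the 2 columns. The region counted in each column is not given in the sources used here. Apart from the 2 H3 copies at 0, the cluster members furthest below were Hist2h2be (19.3%), Hist1h2bc (37.0%) and Hist3h2a (55.6%), picked after their values were seen. Hist2h2be and Hist1h2bc encode H2B and Hist3h2a encodes H2A.

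**Figure D1:**
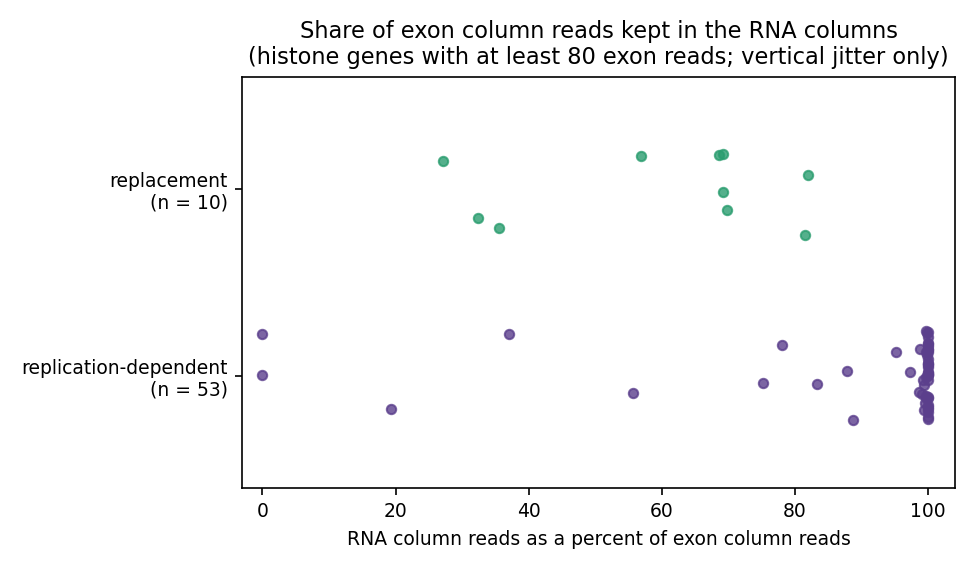
Share of exon column reads kept in the other RNA column (x axis, percent) for each histone gene with at least 80 exon reads, by class; points are spread vertically only to separate them. Most of the 53 cluster members sit near 100%, and the 10 replacement variants lie between 27.1% and 81.9%.

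Exon reads per kilobase could be compared among cluster genes whose RefSeq span is at most 1000 bases. On that scale the control level was 152 CPM per kb for Hist1h4d, 120 for Hist3h2a, 94.4 for Hist1h4c, 77.8 for Hist2h2bb and 70.7 for Hist1h4h. Hist1h4d, Hist1h4c and Hist1h4h encode H4 and Hist2h2bb encodes H2B. The H4 family drew 41.9% of all cluster RNA reads in controls, which is a share of reads and not a level per length.

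Cluster RNA as a whole was lower in KO mice. The summed level of all cluster members was 983, 1123, 999.5 and 817 CPM in control mice 1, 3, 6 and 8, and 781, 817, 798 and 809 CPM in KO mice 2, 4, 5 and 7. The groups barely separated, with control mouse 8 at 817.2 and the highest KO mouse, 4, at 816.6 CPM. The means were 981 ± 126 and 801 ± 15.6 CPM (SD, n = 4 each), or 81.7% of control. Footprints of the same genes summed to 858 ± 14.3 CPM in controls and to 860 ± 42.0 CPM in KO mice (SD, n = 3 each), with overlapping groups.

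The replacement variants did not move together in RNA. Of the 10 tested, 5 had a log2 fold change above 0, and the median was -0.011. The largest falls in mean CPM were in H3f3b (154 to 116), H2afz (94.5 to 80.5) and H3f3a (52.3 to 38.6). H2afy and H2afy2 were higher in KO mice without overlap. The sum over the replacement variants was lower in KO RNA too. Their summed RNA was 512, 495, 530 and 545 CPM in control mice 1, 3, 6 and 8 and 454, 458, 462 and 466 CPM in KO mice 2, 4, 5 and 7, without overlap, or 88.3% of control. Their footprints summed to 366 ± 6.87 and 372 ± 26.7 CPM (SD, n = 3 each), again with overlap. H2afz and H3f3a, 2 members of this RNA sum, had almost no footprint reads. Over the 8 variants tested in both assays the RNA sum was 374 ± 12.1 and 341 ± 8.87 CPM (SD, n = 4 each), without overlap, or 91.1% of control, and the footprint sum 366 ± 6.93 and 372 ± 26.4 CPM (SD, n = 3 each), with overlap.

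**Figure D2:**
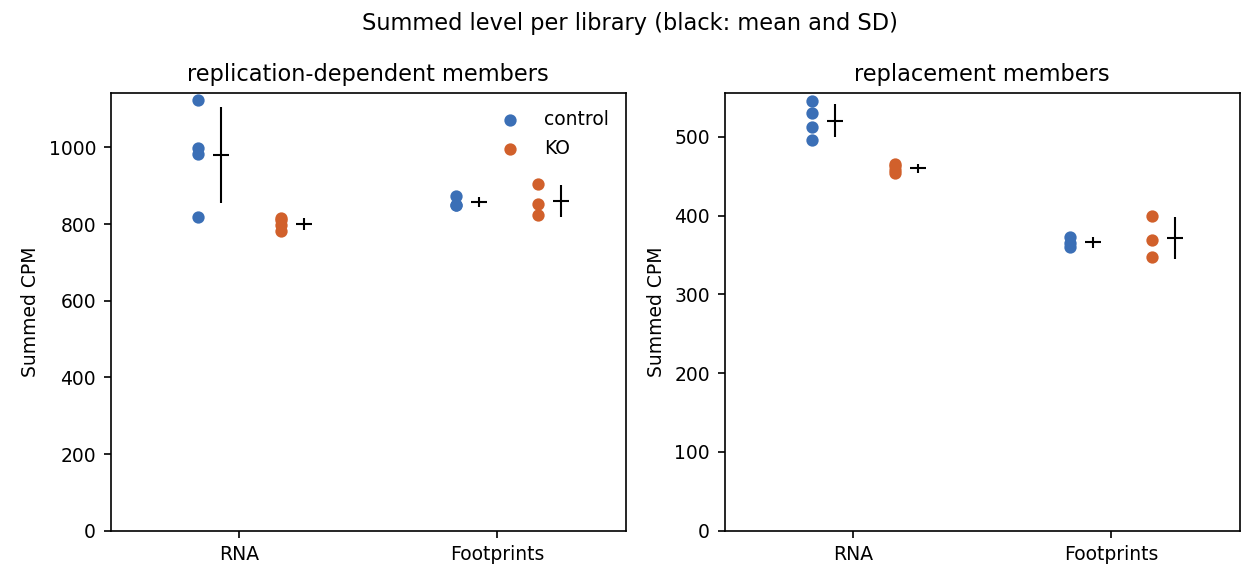
Summed CPM of the histone members in each library (points; y axis from 0) for cluster members and replacement variants, in RNA and footprints, with the mean and SD in black. RNA sums were lower in KO mice (981 against 801 CPM for clusters), while footprint sums of both genotypes overlap.

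By family, the cluster H4 sum was lower in KO RNA (411 ± 61.9 against 319 ± 9.44 CPM, SD, n = 4 each, no overlap), and the sums of H1, H2A, H2B and H3 overlapped. In footprints the H3 sum was higher in KO mice (33.6 ± 1.29 against 46.0 ± 0.391 CPM, SD, n = 3 each, no overlap), also on plain library sizes. The H4 footprint sum overlapped (350 ± 3.46 against 372 ± 23.9 CPM) and was separated and higher on plain library sizes. The footprint sums of H1 and H2B were lower without overlap, but overlapped on plain library sizes.

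In RNA, 11 of 62 members were called (17.7%), against 7.51% of 13507 genes, where called means an adjusted p under 0.05 in edgeR's quasi-likelihood test. Of these, 10 were lower in KO mice (3.94% of all genes were) and 1 was higher (3.58%). All 7 called cluster members were lower, and 41 of 52 had a log2 fold change below 0, with a median of -0.23, beside 50.2% of all genes and a median of -0.0010. Of the 10 replacement variants, 3 fell, 1 rose and 5 were below 0. Of the 11 H4 genes 5 were called, 11 were below 0 and the median was -0.41. No library overlap with KO lower was found for 13 members (21%, against 7.97% of all genes) and with KO higher for 3 (4.84%, against 7.1%).

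Among the H4 genes, Hist2h4 had the largest called change. Its RNA was at 24.4, 26.6, 25.7 and 19.7 CPM in control mice 1, 3, 6 and 8 and at 13.6, 14.7, 16.97 and 13.7 CPM in KO mice 2, 4, 5 and 7. Every KO mouse was below every control (log2 fold change -0.71 ± 0.11 SE, edgeR adjusted p = 0.00218). Hist1h4d, which had the highest H4 level per kb, was at 105, 122, 117 and 106 CPM in controls and at 93.9, 94.1, 94.6 and 96.5 CPM in KO mice. The groups did not overlap and the KO mice lay close together (-0.25 ± 0.061, edgeR adjusted p = 0.0231). Hist1h4h was at 56.5, 65.6, 56.2 and 47.4 CPM in controls and at 41.2, 46.8, 44.2 and 41.9 CPM in KO mice. Control mouse 8 was only just above KO mouse 4 (-0.37 ± 0.089, edgeR adjusted p = 0.0208). Hist1h4f (-0.50 ± 0.13, edgeR adjusted p = 0.0272) and Hist1h4j (-0.59 ± 0.14, edgeR adjusted p = 0.0231) also fell without overlap.

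**Figure D3:**
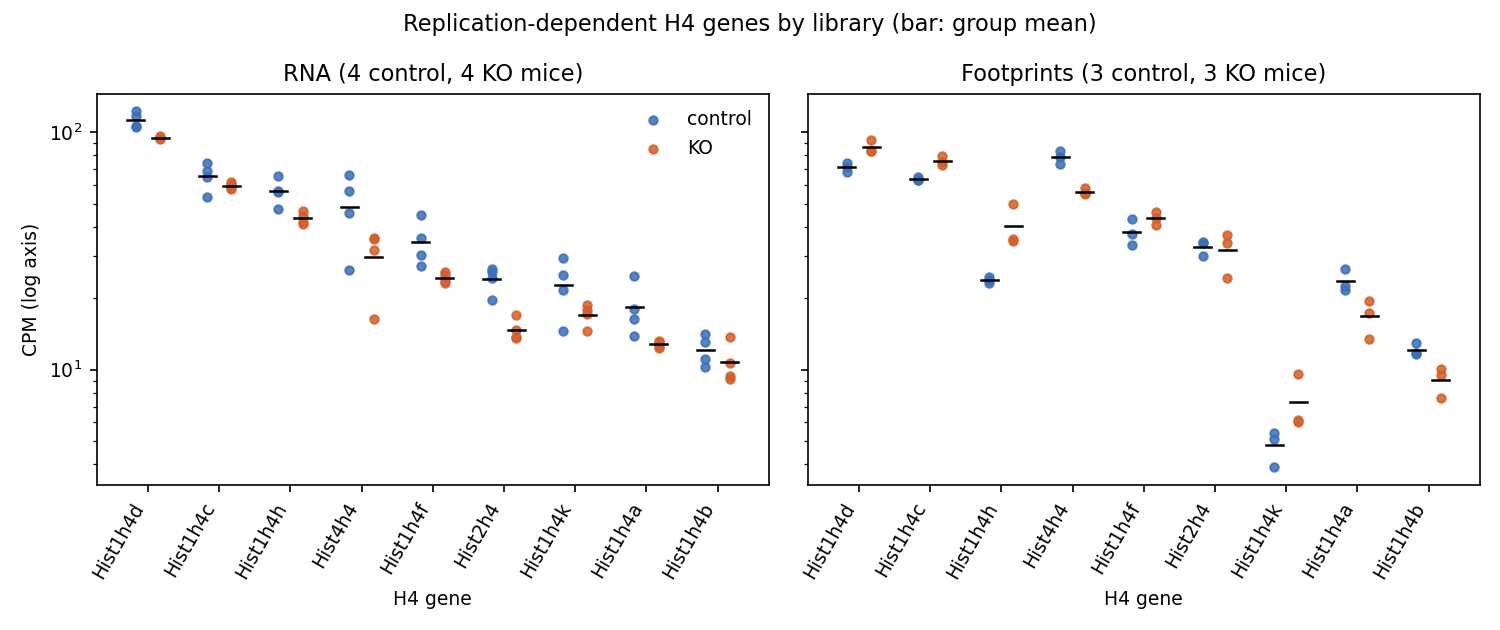
CPM (log axis) of the 9 H4 genes tested in both assays, with 1 point per library and a bar at the group mean, in RNA (left) and footprints (right). KO means lie below control means for each gene in RNA, whereas in footprints Hist1h4h and Hist1h4d are higher and Hist4h4 is lower in KO mice.

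Outside H4, the called cluster genes were Hist1h1d and Hist2h2bb. Hist1h1d, which encodes a somatic linker histone H1, was at 44.1, 50.9, 42.9 and 35.7 CPM in control mice 1, 3, 6 and 8 and at 27.9, 31.3, 28.9 and 31.3 CPM in KO mice 2, 4, 5 and 7. The groups did not overlap (-0.54 ± 0.097, edgeR adjusted p = 0.00533). Hist2h2bb was at 72.3, 77.2, 75.7 and 57.8 CPM and at 49.7, 58.8, 57.2 and 57.2 CPM. Control mouse 8 fell within the KO range (-0.34 ± 0.089, edgeR adjusted p = 0.0313). In RNA 0 of 11 H2A and 0 of 10 H3 cluster genes were called by edgeR (2 and 3 at an unadjusted p under 0.05), and 0 by DESeq2.

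The 2 genes for the replacement form of H3 were called lower in KO RNA, H3f3a on weaker ground. H3f3b was at 159, 142, 156 and 159 CPM in control mice 1, 3, 6 and 8 and at 116, 109, 125 and 114 CPM in KO mice 2, 4, 5 and 7. Its groups were far apart relative to their spread (-0.41 ± 0.061, edgeR adjusted p = 0.00166). H3f3a was at 46.9, 41.8, 54.3 and 66.2 CPM and at 43.2, 38.3, 33.1 and 39.6 CPM. Its groups overlapped (-0.44 ± 0.12, edgeR adjusted p = 0.0434), and its call was lost on plain library sizes, in the exon columns (-0.31, edgeR adjusted p = 0.0575) and without any 1 of 7 libraries. Its log2 fold change was -0.12 in mice 1 to 4 (edgeR adjusted p = 0.339) and -0.73 in mice 5 to 8 (edgeR adjusted p = 0.0121). H2afz, a gene of the variant H2A.Z found at promoters, was at 90.03, 97.0, 96.9 and 94.0 CPM and at 77.6, 84.3, 76.7 and 83.3 CPM. Its groups did not overlap (-0.23 ± 0.058, edgeR adjusted p = 0.0276).

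H1fx, a linker histone variant, was the member that rose. Its RNA was at 10.7, 12.5, 10.3 and 9.94 CPM in control mice 1, 3, 6 and 8 and at 12.3, 16.3, 19.2 and 15.6 CPM in KO mice 2, 4, 5 and 7. Control mouse 3 and KO mouse 2 overlapped (0.54 ± 0.13, edgeR adjusted p = 0.0251). The other replacement variants did not pass the test in RNA. Their log2 fold changes were -0.10 for H1f0, the linker histone of differentiated cells, -0.15 for H2afj, 0.12 for H2afv, the second H2A.Z gene, 0.08 for H2afx, whose phosphorylated form marks DNA breaks, 0.08 for H2afy and 0.16 for H2afy2, the macroH2A genes.

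H3f3b, Hist2h4 and Hist1h1d stayed called without any 1 RNA library (highest edgeR adjusted p 0.0127, 0.0137 and 0.0287). Each of the other 8 lost its call without at least 4 of the 8 libraries in turn. Leaving out 1 library gave 4 to 20 called members. The 20 came without control mouse 8, where 13.2% of all genes were called, and the 4 without mouse 2, 4 or 6, where 2.75%, 2.74% and 3.77% were. With KO mice 2, 4 and 7 summed to 1 library, edgeR called 0 members and 0.623% of all genes, with 18 at an unadjusted p under 0.05 and with 41 of 52 cluster members and 11 of 11 H4 genes still below 0. In mice 1 to 4 alone, 19 of 61 members were called, beside 24.2% of all genes, and the H4 median was -0.57. In mice 5 to 8 alone, 1 was called (H3f3a), beside 0.423% of all genes, 9 of 11 H4 genes were below 0 with a median of -0.22, and the cluster median was -0.11. The log2 fold changes of the 11 called members kept their sign in both sets of mice. Besides H3f3a, those that moved included Hist1h4f (-0.72 in mice 1 to 4, -0.24 in mice 5 to 8). Hist2h2bb (-0.45 and -0.22) and H1fx (0.32 and 0.78) also moved, all chosen after their values were seen. Over 18 alternatives in RNA, Hist2h4 ranged from -0.84 to -0.56 and Hist1h1d from -0.67 to -0.38.

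In footprints cluster genes were called in both directions. In KO mice 14 of 49 members were called (28.6%), close to the 25.7% of 12158 genes, with 8 higher (12% of all genes) and 6 lower (13.7%). The median log2 fold change was 0.14 over 41 cluster members and 0.0061 over all genes. Plain library sizes moved the all-gene median to 0.066, and then 9 members were called higher and 3 lower. DESeq2 called 7 members (14.3%), each of them among the 14, beside 1821 of 12158 genes. In 11 members every KO library was above every control (22.4%, against 18.1% of all genes) and in 7 every one was below (14.3%, against 19.2%).

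The H4 genes moved in both directions in footprints, with 4 of 9 called higher and 2 lower. Hist1h4h was at 23.1, 24.6 and 23.9 CPM in control mice 1, 3 and 9 and at 34.9, 49.9 and 35.6 CPM in KO mice 2, 4 and 10. Each KO mouse was above each control and KO mouse 4 was highest (0.74 ± 0.11, edgeR adjusted p = 3.48e-08). Hist1h4d was at 71.3, 67.8 and 73.9 CPM in controls and 83.5, 92.5 and 83.4 CPM in KO mice, again without overlap (0.29 ± 0.067, edgeR adjusted p = 0.000497). Hist1h4c (0.26 ± 0.070, edgeR adjusted p = 0.00312) and Hist1h4k (0.63 ± 0.24, edgeR adjusted p = 0.0432) also rose, the second on 3.899 to 5.43 against 6.05 to 9.63 CPM. The call of Hist1h4k was lost without mouse 3, 9 or 10 (edgeR adjusted p up to 0.417).

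Hist4h4, the lone member of its cluster, went the other way. Its footprints were at 73.2, 78.7 and 82.9 CPM in control mice 1, 3 and 9 and at 55.3, 58.0 and 55.1 CPM in KO mice 2, 4 and 10. The groups did not overlap (-0.49 ± 0.073, edgeR adjusted p = 3.83e-08). Its RNA varied widely, from 26.3 to 65.7 CPM in controls and from 16.3 to 36.0 CPM in KO mice, and was not called (-0.68 ± 0.24, edgeR adjusted p = 0.0983). Sample titles share prefixes across the genotypes (mice 1 and 2, mice 3 and 4, and mice 5 to 8), and with the prefix as a block Hist4h4 RNA was called, as was that of Hist1h4a, among 13 members (21.0%, beside 7.16% of all genes). Hist1h4a footprints fell as well (-0.50 ± 0.13, edgeR adjusted p = 0.0024), a call lost without KO mouse 2 (edgeR adjusted p = 0.0529).

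In the H3 family 8 of 9 members were above 0 in footprints, with a median of 0.41, and 1 was called. That gene, Hist1h3i, was at 1.89, 3.56 and 1.42 CPM in control mice 1, 3 and 9 and at 5.46, 7.39 and 7.12 CPM in KO mice 2, 4 and 10. All KO libraries were above all controls, although on few reads (1.502 ± 0.29, edgeR adjusted p = 2.36e-05). It was called by edgeR and not by DESeq2.

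Linker and H2B footprints included falls. Hist2h2bb was at 95.8, 99.6 and 102 CPM in control mice 1, 3 and 9 and at 79.2, 82.0 and 78.8 CPM in KO mice 2, 4 and 10. The groups did not overlap (-0.31 ± 0.062, edgeR adjusted p = 3.23e-05), and the log2 fold change stood beside -0.34 in RNA. Hist1h1d (-0.35 ± 0.13, edgeR adjusted p = 0.0297) and Hist1h1e, another somatic H1 gene (-0.20 ± 0.072, edgeR adjusted p = 0.0325), fell, but neither was called on plain library sizes. Hist1h1d also lost its call without mouse 2, 4 or 9 (edgeR adjusted p up to 0.255) and Hist1h1e without mouse 1, 2, 3 or 10 (up to 0.174). Hist1h2bg, an H2B gene (0.70 ± 0.22, edgeR adjusted p = 0.0102), and Hist1h2ab, an H2A gene (0.997 ± 0.31, edgeR adjusted p = 0.0113), rose without overlap. Each lost its call without 1 of the mice, Hist1h2bg without mouse 3 and Hist1h2ab without mouse 1 or 4. DESeq2 called neither. Hist1h2ab rested on few reads, 6, 14 and 18 in control mice 1, 3 and 9. Its KO reads were 16, 27 and 22 in mice 2, 4 and 10.

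Among the replacement variants, H3f3b rose and H2afy2 fell in footprints. H3f3b was at 34.2, 32.4 and 35.1 CPM in control mice 1, 3 and 9 and at 40.1, 47.0 and 44.2 CPM in KO mice 2, 4 and 10. The groups did not overlap, and the order was the reverse of that in RNA (0.37 ± 0.094, edgeR adjusted p = 0.00124). H2afy2 was at 19.1, 22.2 and 21.8 CPM in controls and 13.5, 18.1 and 16.5 CPM in KO mice (-0.40 ± 0.14, edgeR adjusted p = 0.0217). It was not called on plain library sizes or without mouse 2, 3 or 9 (edgeR adjusted p up to 0.159). The other 6 were not called, at 0.03 for H1f0, -0.12 for H1fx, 0.18 for H2afj, 0.09 for H2afv, 0.13 for H2afx and -0.06 for H2afy on the log2 scale.

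H2afz and H3f3a could not be tested in footprints. H2afz had 0 footprint reads in controls and 1 in KO mice, and H3f3a had 3 and 3. With 3 reads per library as the limit that a count of 0 allows (0.497 to 0.695 CPM in footprints), control footprints of H2afz were at least 136-fold lower than its RNA at 94.5 CPM. Of 6577 genes with a control RNA of at least 30 CPM, 35 (0.532%) had as few as 3 control footprint reads or fewer. The cause was not tested.

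The measured change in footprints relative to RNA is called translational efficiency (TE) here, and it was tested as the interaction of genotype and assay. In KO mice 10 of 49 members were called (20.4%, against 7.44% of 12145 genes), 8 higher (3.22% of all genes) and 2 lower (4.22%). All 7 called cluster members were higher. Of the 41 cluster members 34 were above 0, with a median of 0.32, beside a median of -0.011 over all genes, of which 51.7% were below 0. In the H3 family 9 of 9 and in the H4 family 8 of 9 were above 0. TE is computed from the same libraries as the RNA and footprint changes, so its direction is not a separate measurement.

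H3f3b had a TE change of 0.77 ± 0.11 (edgeR adjusted p = 0.000131), Hist1h4h of 1.11 ± 0.17 (edgeR adjusted p = 0.000352) and Hist1h4d of 0.53 ± 0.095 (edgeR adjusted p = 0.00137). In these 3 genes RNA was called lower and footprints higher. This pattern was found in 3 of 49 members (6.12%), and calls in opposite directions in 0.807% of all genes. A further 2 members, Hist1h1d and Hist2h2bb, were called lower in both (calls in the same direction were found in 4.08% of members and 2.68% of all genes). Whether called or not, RNA was below 0 and footprints above 0 in 20 of 49 members (40.8%, against 21.8% of all genes).

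Hist1h3i (1.75 ± 0.39, edgeR adjusted p = 0.00804), Hist1h2bg (0.96 ± 0.25, edgeR adjusted p = 0.0234), Hist1h4f (0.70 ± 0.19, edgeR adjusted p = 0.0239), the H3 gene Hist2h3b (1.22 ± 0.33, edgeR adjusted p = 0.0257) and Hist2h4 (0.66 ± 0.18, edgeR adjusted p = 0.0274) were the other cluster genes with a higher TE. Hist2h3b is a low gene, at 3.73, 3.52, 3.32 and 3.60 RNA CPM in control mice 1, 3, 6 and 8 and at 2.15, 2.18, 1.28 and 2.87 CPM in KO mice 2, 4, 5 and 7. Its groups did not overlap, yet its RNA missed the threshold (edgeR adjusted p = 0.0501). H1fx (-0.67 ± 0.18, edgeR adjusted p = 0.0275) and H2afy2 (-0.56 ± 0.15, edgeR adjusted p = 0.0253) had a lower TE.

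H3f3b, Hist1h4h, Hist1h4d and Hist1h3i kept their TE call in edgeR without any 1 mouse (highest edgeR adjusted p 0.00357, 0.00357, 0.0209 and 0.0435). The other 6 lost it without at least 4 of the 10 mice in turn. With the close RNA libraries of both genotypes summed, 4.21% of all genes were called and 6 of the 10 members stayed called, namely H1fx, H3f3b, Hist1h2bg, Hist1h3i, Hist1h4d and Hist1h4h. In mice 1 to 4, which gave both assays, 18 of 51 members were called with the mouse as a block and 16 without it, beside 15.4% and 14.6% of all genes. DESeq2 called 8 members in TE (8.3% of all genes), adding Hist1h4c and leaving out Hist1h3i, Hist1h2bg and Hist2h3b.

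**Figure D4:**
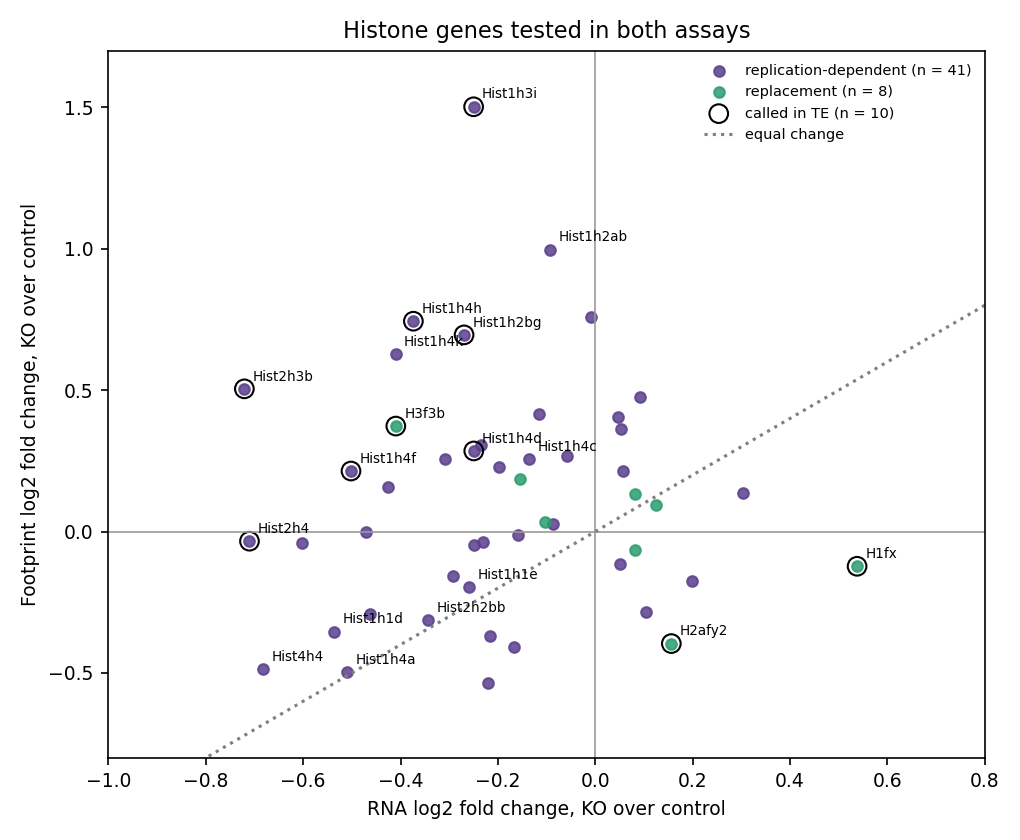
Log2 fold change of KO over control in RNA (x axis) and in footprints (y axis) for the 49 histone genes tested in both assays, coloured by class, with the 10 genes called in TE ringed and the line of equal change dotted. Most cluster genes lie above the dotted line (34 of 41 had a TE change above 0), and H1fx and H2afy2 lie below it.

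In control mice alone, the ratio of footprint CPM to RNA CPM ranged widely among the histones. Its log2 median was -0.16 over 41 cluster members, 0.61 over 8 replacement variants and -0.13 over 12286 genes. The count minimum left out H2afz and H3f3a for their few footprints, and with both placed lowest the median over 10 variants was 0.31. H1fx was highest at 2.05, the 99.3rd percentile of all genes, and it was at 2.03 in mouse 1 and 1.87 in mouse 3, the control mice in both assays. H3f3b was the lowest variant that passed the minimum, at -2.18 (-2.22 and -2.13 in those mice). Among the clusters Hist1h3e was lowest at -2.49 and Hist1h3d highest at 1.10, both H3 genes. With the exon columns as the RNA measure, the class medians relative to all genes changed order, at 0.66 for clusters and 0.26 for replacement variants, beside -0.03 and 0.74 with the other columns.

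**Figure D5:**
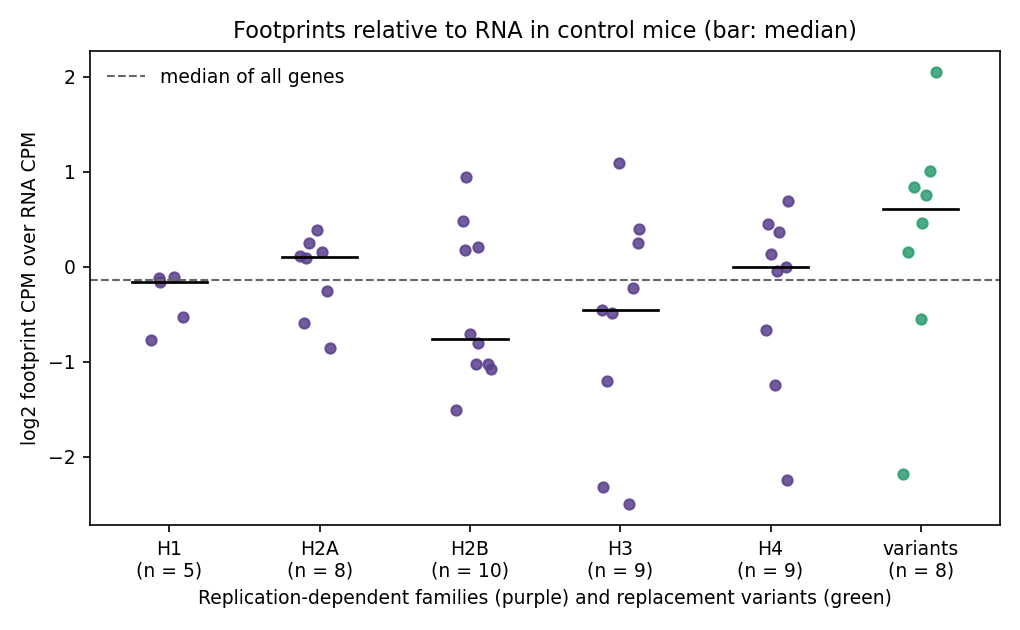
Log2 ratio of footprint CPM to RNA CPM in control mice (y axis) for 41 cluster genes by family and 8 replacement variants, with bars at the medians and the median of all genes dashed at -0.13. The H3 genes span -2.49 to 1.10, and the replacement variants that passed the count minimum run from H3f3b at -2.18 to H1fx at 2.05.

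Factors that act on histone mRNA or protein were listed apart. Of 9 tested genes that process histone mRNA, edgeR called 0 in RNA (0 at an unadjusted p under 0.05, and 0 by DESeq2). In footprints, the scaffold Sympk rose (0.17 ± 0.061, edgeR adjusted p = 0.0317) and Cpsf2, a subunit of the cleavage complex, fell (-0.25 ± 0.058, edgeR adjusted p = 0.000310). Of all genes 25.7% were called in footprints, and DESeq2 called 1 of the 9 genes. In TE edgeR called 0 (2 at an unadjusted p under 0.05, 0 by DESeq2).

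Histone chaperones, which carry histones to and from DNA, included falls in footprints. In RNA 1 of 22 was called (7.51% of all genes were), Npm1, which fell (-0.24 ± 0.055, edgeR adjusted p = 0.0169). In footprints 10 of 21 fell (13.7% of all genes did) and 1 rose (12%), with a list median of -0.16, and DESeq2 called 8. Those that fell were Atrx (-0.52), part of a complex that deposits replacement H3, Npm1 (-0.43), Nasp (-0.39), a chaperone of H3 and H4, Ep400 (-0.36), an H2A.Z exchange motor, Ssrp1 (-0.34) and Supt16 (-0.17), the subunits of FACT, Cabin1 (-0.29), Anp32e (-0.24), which removes H2A.Z, Nap1l2 (-0.15) and Nap1l5 (-0.09). Asf1a, an H3 and H4 chaperone, rose (0.38). In TE 3 of 21 fell (4.22% of all genes did), Atrx (-0.52), Anp32e (-0.37) and Ep400 (-0.30).

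Genes of DNA replication and the cell cycle were also looked at, since cluster histones are made in S phase. In RNA edgeR called 0 of 19 (5 at an unadjusted p under 0.05, 0 by DESeq2), and their summed RNA overlapped between genotypes (207 to 235 CPM in controls, 200.5 to 215 in KO mice). Their summed footprints were lower without overlap (226 to 234 CPM in controls, 196 to 223 in KO mice). In footprints 4 of 16 were called, close to the 25.7% of all genes. Of these 1 rose, the helicase subunit Mcm4 (0.35), and 3 fell, Mcm3 (-0.97), the proliferation marker Mki67 (-0.85) and the cyclin Ccne1 (-0.32), where DESeq2 called 1. In TE edgeR called 0 (3 at an unadjusted p under 0.05, 0 by DESeq2).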

How the data were processed

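The authors deposited 1 table of whole-number counts per gene, not normalized. The submitters' processing notes name Bowtie2, STAR 2.5, featureCounts and Subread 1.4.6 and the builds mm9 and mm10, without their roles. The region counted and the strand setting are not given in the sources used here. RNA columns without the exon suffix were used, since footprints were given for the same genes, and 2849 genes had no value there. Per the labels' protocols, footprints of 28 to 34 nt came from monosomes, and RNA was depleted of ribosomal RNA and made into strand-specific libraries.

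Counts of all genes were tested with edgeR 4.0.16 (R 4.3.3) by its quasi-likelihood F test, two-sided, with TMM scaling and with filterByExpr (minimum count 10) as the filter. Benjamini-Hochberg adjustment ran over the whole table, with a threshold of 0.05. TE was the interaction of genotype and assay over 14 libraries. CPM values were scaled by TMM within an assay. Footprint-to-RNA ratios needed a mean of 10 counts in both. The test was checked on simulated counts. DESeq2 1.42.0, other scalings, filters and left-out libraries were alternatives. Library pairs were compared by chi-square, using genes whose 2 counts summed to 20 or more and leaving out BC048546. The mouse number was taken as the replicate. Per the labels, mice 1 to 4 gave both assays, which pairs those libraries by animal. The residuals of the same mouse correlated at only 0.0031, 0.011, 0.034 and -0.013, and in 3 of 4 mice another mouse of the genotype correlated more.

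Named were members called in any comparison, the 5 cluster and 10 replacement members with most RNA, the extremes of the footprint-to-RNA ratio, and called genes of the listed factors. The members and lists were chosen with earlier results of these data known.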

Additional observations from a re-analysis of the deposited data

Results flagged for a closer look

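In RNA, 58 groups of 4 libraries were examined for a library far from the other 3, and 2 were found, where chance gives about 2.9. Control mouse 8 had Hist1h2ab, an H2A gene, at 2.63 CPM against 4.66 to 4.76 CPM in the other controls (gap over range 0.956). Control mouse 3 had H2afx at 13.5 CPM against 8.96 to 9.16 CPM (gap over range 0.954). Neither gene was called in RNA.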

How the results depend on the processing

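The 11 members called in RNA (7.51% of all genes) became 13 with DESeq2 (8.47%), 10 on plain library sizes (7.76%), 12 without a filter (5.71%), 13 with the title prefix as a block (7.16%) and 11 in the exon columns (8.64%). They became 0 with KO mice 2, 4 and 7 summed (18 at an unadjusted edgeR p under 0.05) and 0 with control mice 1 and 3 also summed (16 at that p; 0.263% of all genes called), 1 when only mice 5 to 8 were used, and 19 when only mice 1 to 4 were, the last chosen after the data were seen. Leaving out 1 mouse gave 4 to 20 members, the 20 without control mouse 8 the 4 without mouse 2, 4 or 6, and 5 or 6 without mouse 1, 3 or 7, while 2.74% to 13.2% of all genes were called. The 14 called in footprints became 7 with DESeq2. The 10 called in TE became 6 with the close RNA libraries of both genotypes summed (4.21% of all genes), and 5 to 13 without 1 mouse (3.05% to 10.1%), the 5 without mouse 3, 4 or 9 and 6 without mouse 2. With the mouse as a replicate block, mice 1 to 4 gave 18 members, 9 of them among the 10, and the same mice gave 16 without the block, which was chosen after the data were seen. H4 RNA was below 0 in 11 of 11 genes under all alternatives except mice 5 to 8 (9 of 11) and no filter (11 of 12).

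The median footprint-to-RNA ratio of replacement variants, relative to all genes, went from 0.74 to 0.26 in the exon columns and 0.66 at a minimum of 50 counts. That of clusters went from -0.03 to 0.66 and 0.032, and ranged from -0.149 to 0.028 without 1 control mouse, with its sign changing without mouse 3 (0.0065) or 6 (0.028). The log2 change of the summed cluster footprints, 0.0043, became 0.063 on plain library sizes, and without 1 mouse ranged from -0.034 (KO mouse 4) to 0.035 (KO mouse 2), at -0.0022 without control mouse 1 and -0.0037 without control mouse 3. That of replacement variants, 0.023, ranged from -0.031 (without KO mouse 4) to 0.071 (without KO mouse 2). The cause of these shifts was not tested. Few footprint reads limit the precision of low members such as Hist1h3i.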
